A study of Mus musculus with 32 samples.

Results

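Striatal RNA of YAC128 mice given the antisense oligonucleotide AON12.1 was compared with that of YAC128 mice given artificial cerebrospinal fluid (aCSF), the carrier in which the oligonucleotide was dissolved. The libraries were taken by their titles, 8 from each group, which makes 16 of the 32 libraries in the series. Both groups carry the YAC128 allele on a B6 background, a yeast artificial chromosome with the human huntingtin gene and an expanded CAG repeat. The comparison between them therefore does not isolate the effect of the transgene itself. Per the labels, treatment went into a lateral ventricle through a fixed cannula, in 3 injections that began near 6 months of age and were repeated 2 and 4 weeks after surgery. Each injection had a volume of 10 µL and held either 500 µg of AON12.1 or the carrier alone, and the mice were killed at 12 months. Groups of 8 YAC128 mice given a scrambled oligonucleotide at the same dose and of 8 wild-type (WT) littermates given aCSF are used here as side-by-side levels. The aCSF group received the same surgery and no oligonucleotide of any sequence, so its comparison with AON12.1 holds both the sequence of AON12.1 and the presence of an oligonucleotide.

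Antisense oligonucleotides are short, chemically modified strands that pair with a chosen transcript, and AON12.1 is named in the series title as a means to disrupt the caspase-6 cleavage site of huntingtin. After injection into the cerebrospinal fluid such molecules are taken up by neurons, astrocytes, oligodendrocytes and microglia, and they persist in tissue for a long time. The striatum consists mostly of projection neurons of the direct pathway, which carry Drd1, Tac1 and Pdyn, and of the indirect pathway, which carry Drd2, Adora2a and Penk. Indirect-pathway neurons are known as the more vulnerable ones in Huntington disease. Microglia are the resident phagocytes, astrocytes raise Gfap when they react to injury, and both cell types make complement proteins.

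The sequences upstream of 3 genes that were called higher are shown. They belong to the largest change among the called genes and to a pair of microglial genes whose sequences hold the GGAAGT motif marked below. They are RefSeq sequences of GRCm38.p6, the 250 bases before the annotated start, written 5′ to 3′ on the strand of the gene. Capitals mark TATAAA in 1110038B12Rik, and GGAAGT or its reverse complement ACTTCC, the core bound by ETS factors such as PU.1, in Lyz2 and Laptm5. They lie at chr17:34952472-34952721 (minus strand), chr10:117282273-117282522 (minus strand) and chr4:130913066-130913315 (plus strand).
1110038B12Rik: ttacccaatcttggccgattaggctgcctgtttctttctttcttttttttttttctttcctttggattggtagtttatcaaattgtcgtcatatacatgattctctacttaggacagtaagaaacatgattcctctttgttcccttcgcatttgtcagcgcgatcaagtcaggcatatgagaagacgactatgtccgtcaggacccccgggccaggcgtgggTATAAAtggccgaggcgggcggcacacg
Lyz2: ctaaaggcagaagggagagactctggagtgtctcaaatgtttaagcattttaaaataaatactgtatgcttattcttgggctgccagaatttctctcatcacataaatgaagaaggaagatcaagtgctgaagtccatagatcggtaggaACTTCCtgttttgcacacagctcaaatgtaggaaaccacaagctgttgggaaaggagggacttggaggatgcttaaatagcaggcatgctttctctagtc
Laptm5: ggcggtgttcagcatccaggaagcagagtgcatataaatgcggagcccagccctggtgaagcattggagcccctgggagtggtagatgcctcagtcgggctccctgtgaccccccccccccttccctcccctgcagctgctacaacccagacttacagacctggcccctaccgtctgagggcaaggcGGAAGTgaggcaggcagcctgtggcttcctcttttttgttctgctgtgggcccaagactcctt
In windows of 300 bases (250 before and 50 after the start, both strands), GGAAGT was present in 8 of the 25 called genes with a RefSeq entry and in 24.1% of all 27025 promoters. The 8 hold Lyz2 and Laptm5 but not Tyrobp or Cd52, which are microglial genes called higher as well. The rest of the 8 are Hypk, Alkbh6, S100b, Gfap, Ttc38 and Dzip3. TATAAA was present in 3 of the 25, namely 1110038B12Rik, Laptm5 and Dmrtc1a, and in 14.2% of all. These matches are a description of the letters only.

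The 16 libraries held 658934 to 1248991 gene counts each. Levels below are TMM-normalized CPM (counts scaled to library size), and the median standard error (SE) of a log2 fold change over all tested genes was 0.16. Every library carried the defining markers of striatum: Ppp1r1b (DARPP-32) ran from 442 to 2049 CPM, and Drd1 and Adora2a were counted in all 16. Libraries differed in how much neighbouring tissue they held. The aCSF library replicate 2 had the lowest striatal and the highest thalamic list level, aCSF replicate 4 had Ttr, the transthyretin of choroid plexus, at 3191 CPM, and AON12.1 replicate 2 had the highest striatal and oligodendrocyte levels and the fewest counts. The share of all counts that fell in no annotated feature averaged 23.8% ± 6.70 with AON12.1 and 25.7% ± 4.92 with aCSF (SD, n = 8 each), a difference of -1.80 points that did not pass a two-sided exact permutation test (p = 0.541). Animal numbers in the titles begin with 18 or 19, which the labels do not explain; 2 AON12.1 and 4 aCSF libraries belong to series 18, and 6 and 4 to series 19. Within series 18 the no-feature share was 18.2% with AON12.1 and 29.0% with aCSF (a difference of -10.9 points, exact p = 0.0667, the smallest that 2 against 4 can give), and within series 19 it was 3.48 points higher (exact p = 0.381).

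The level of mouse huntingtin and of the transgene did not pass the test. Htt stood at 71.3, 102 and 121 CPM (lowest, median, highest) with AON12.1 and at 84.2, 102 and 130 CPM with aCSF. Its log2 fold change was -0.05 ± 0.12 (adjusted p = 0.928), and the 95% interval of the AON12.1 to aCSF ratio ran from 0.822 to 1.14. The feature NM_001388492, which is given here under its identifier and averaged 3.40 CPM in WT, ranged from 94.4 to 177 CPM with AON12.1 and from 119 to 188 CPM with aCSF, with a ratio interval of 0.827 to 1.21. Counts per gene from 3′ libraries give no value for a single exon or for the protein site.

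In all, 33 of 10679 tested genes were called at an adjusted p under 0.05 (0.309%), 23 higher (0.215%) and 10 lower (0.0936%) with AON12.1. All adjusted p-values come from the quasi-likelihood F test of edgeR and were adjusted by Benjamini-Hochberg across every tested gene. Changes ran from 0.40 to 2.54 among the higher genes (median 0.71) and from -1.11 to -0.46 among the lower genes (median -0.74), on the log2 scale, and 31 of the 33 are annotated as protein-coding. Of the 23 higher genes 8 belong to lists of microglia, reactive astrocytes or mature oligodendrocytes. Of the 10679 tested genes, these lists held 16 (resting microglia), 13 (activated microglia), 11 (reactive astrocytes) and 39 (mature oligodendrocytes). The lists were chosen with earlier results of these data known. The set of higher genes also held genes of neurons such as Prmt8, Shisa9 and Rbfox1. The 8 libraries of one group lay wholly outside those of the other for 11 of the 23 higher and 6 of the 10 lower genes, and for 20 of all tested genes (0.187%). An unadjusted p under 0.05 was found for 1234 genes (11.6%), 697 higher and 537 lower. Scaling by library size in place of TMM moved the median of all genes to -0.06 from 0.00 and gave 19 higher and 18 lower calls.

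**Figure D1:**
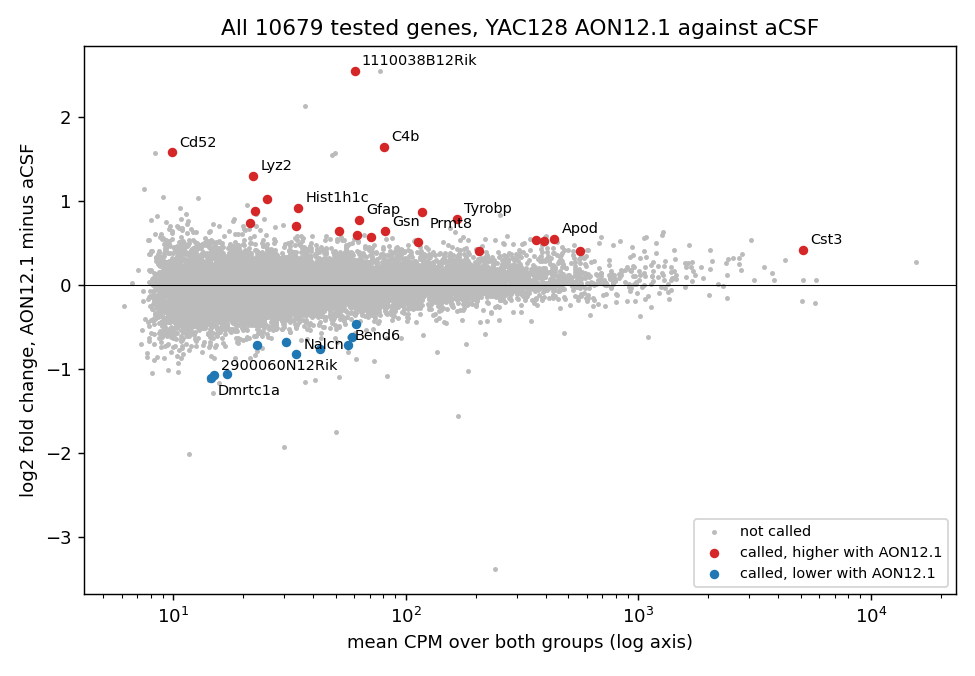
Log2 fold change of AON12.1 minus aCSF (vertical axis) against the mean CPM over both groups (horizontal log axis) for the 10679 tested genes; red and blue points are the 23 genes called higher and the 10 called lower. 1110038B12Rik at 2.54 and C4b at 1.64 lie above the cloud, while grey points with a large fold change, such as Ttr at -3.38, did not pass the test.

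No gene had a smaller p than 1110038B12Rik (ENSMUSG00000092203, chromosome 17), a noncoding transcript that hosts small nucleolar RNAs, guides for the chemical modification of ribosomal RNA. It stood at 87.2, 97.8 and 134 CPM (lowest, median, highest) with AON12.1 and at 9.78, 18.2 and 25.6 CPM with aCSF. All 8 AON12.1 libraries lay above all 8 aCSF libraries. It rose 5.83-fold (2.54 ± 0.15, adjusted p = 9.28e-16). In the scrambled group it ranged from 10.6 to 27.6 CPM and in WT it reached at most 22.5 CPM, so the AON12.1 libraries were also above every library of the other groups. The change was 2.54 within series 18 (adjusted p = 1.11e-05) and 2.68 within series 19 (adjusted p = 8.23e-10), and its adjusted p ran from 1.10e-50 to 1.11e-05 over all settings tried.

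Other hosts of small nucleolar RNAs did not share this size of change. Of 17 tested hosts, which include 1110038B12Rik, only 1110038B12Rik was called by edgeR. Of the 17, 9 had a higher value, and their median was 0.03, against 0.00 for all tested genes. The counts of calls that follow for the hosts include 1110038B12Rik. DESeq2 called 2 and voom 1. With edgeR 4 were called higher and 2 lower of 18 tested in series 18, and 1 was called in series 19. Gas5, a noncoding host induced by growth arrest, ranged from 108 to 280 CPM with AON12.1 and from 89.2 to 193 CPM with aCSF (0.63 ± 0.16, adjusted p = 0.0656). Snhg12 was at 0.35 (adjusted p = 0.373) and Snhg3 at -0.38 (adjusted p = 0.540). Of 16 tested factors of nonsense-mediated decay, the pathway that degrades many such host transcripts, 0 were called by edgeR (1 at an unadjusted p under 0.05), with Upf1 at 0.33 (adjusted p = 0.389).

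C4b (ENSMUSG00000073418, chromosome 17), the complement component cleaved by C1s, stood at 73.2, 117 and 175 CPM with AON12.1 and at 31.0, 39.0 and 45.6 CPM with aCSF. The groups did not overlap. C4b rose 3.12-fold (1.64 ± 0.16, adjusted p = 3.20e-09), with 1.72 in series 18 and 1.71 in series 19 (adjusted p = 0.00561 and 1.73e-05, with 1.00e-19 to 0.00561 over all settings tried). The scrambled group ranged from 41.4 to 69.4 CPM and WT averaged 38.9 CPM. Its near copy C4a had 59 counts over all 32 libraries, and the sources used here do not give how reads shared by the pair were assigned.

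C4b and 1110038B12Rik lie close together on chromosome 17, and genes around them were read for that reason, after their values were seen. Among the 20 tested genes nearest to 1110038B12Rik in gene order, 10 on each side, C4b was the 7th on its side and the only one called. The other 19 ranged from -0.88 (Hspa1a, an inducible chaperone, adjusted p = 0.425) to 0.41 (Clic1, adjusted p = 0.480), and 4 of them had an unadjusted p under 0.05. Of 482 tested genes on the chromosome 3 were called, the third being Mettl26.

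The other complement genes had smaller differences. Of 9 tested complement genes, which include C4b, only C4b was called by edgeR. Of the 9, 7 had a higher value, with a median of 0.28. The counts of calls that follow include C4b. DESeq2 called 2 and voom 1. With edgeR 2 were called in series 18 and 1 in series 19. The C1q chains, made by microglia, were at 0.46 ± 0.11 for C1qb (adjusted p = 0.0531), 0.45 ± 0.16 for C1qc (adjusted p = 0.223) and 0.28 ± 0.12 for C1qa (adjusted p = 0.373). C1qb ranged from 192 to 340 CPM with AON12.1, 147 to 201 CPM with aCSF and 203 to 342 CPM with the scrambled oligonucleotide.

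**Figure D2:**
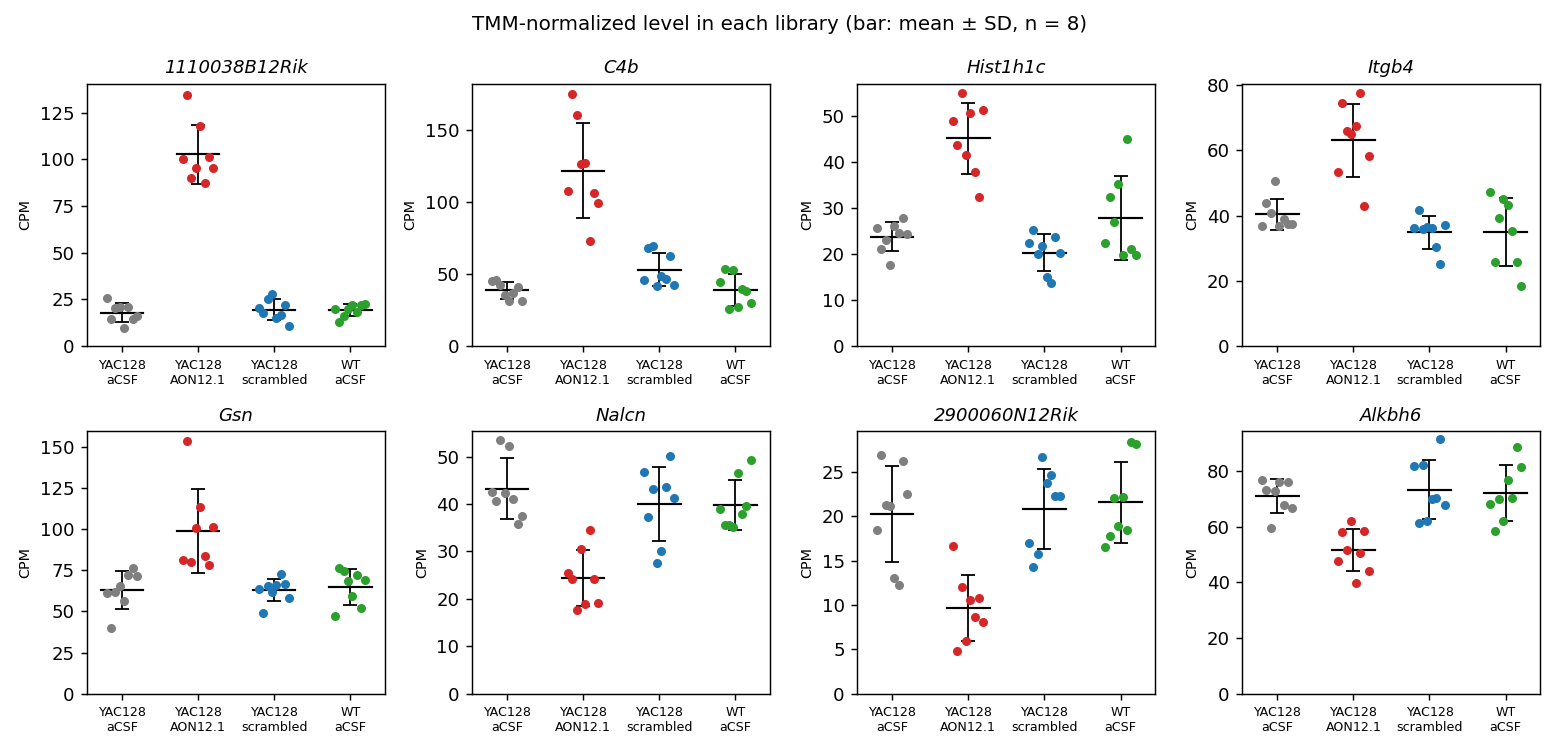
TMM-normalized CPM (vertical axes, from 0) of 8 called genes in each library of the 4 groups; points are libraries, and the bar and whiskers are the mean ± SD (n = 8). For 1110038B12Rik the AON12.1 libraries lie at 87.2 CPM or more and all others at 27.6 CPM or less, and for Nalcn the AON12.1 libraries lie below all aCSF libraries.

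Hist1h1c, Itgb4 and Gsn were also higher than both the aCSF and the scrambled group. Hist1h1c, a linker histone gene whose transcripts can be polyadenylated, stood at 32.3, 46.3 and 54.9 CPM with AON12.1 and at 17.6, 24.4 and 27.8 CPM with aCSF, without overlap. It rose by 0.92 ± 0.16 (adjusted p = 0.00122), and against the scrambled group by 1.17 (adjusted p = 3.45e-05). It was the called gene among 13 tested genes of polyadenylated histones, of which 10 had a higher value (median 0.12), and reads shared within the histone family make its level uncertain.

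Itgb4, the integrin subunit of hemidesmosomes, which brain endothelium and some glia also express, stood at 43.1, 65.5 and 77.5 CPM with AON12.1 and at 36.9, 38.2 and 50.5 CPM with aCSF, and 7 of 8 AON12.1 libraries were above all aCSF libraries. It rose by 0.64 ± 0.14 (adjusted p = 0.0157) and by 0.85 ± 0.14 against the scrambled group (adjusted p = 0.00106). Its partner Itga6 was at 0.39 (adjusted p = 0.534). Itgb4 was not called without AON12.1 replicate 2 or replicate 6. It was at 0.54 in series 18 and 0.73 in series 19 and was called in neither (adjusted p = 0.194 and 0.273). Nor was it called without aCSF replicates 2 and 4 and AON12.1 replicate 2, or with the striatal list level as a covariate.

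Microglial genes rose in part. Tyrobp, the signalling adaptor of microglial receptors such as Trem2, stood at 145, 209 and 309 CPM with AON12.1 and at 89.1, 128 and 149 CPM with aCSF. In 7 of 8 AON12.1 libraries it was above every aCSF library, and it rose 1.73-fold (0.79 ± 0.13, adjusted p = 0.00122). Lyz2, the lysozyme of phagocytes, stood at 24.2, 29.6 and 42.1 CPM with AON12.1 and at 5.56, 11.2 and 21.3 CPM with aCSF. The groups did not overlap, and Lyz2 rose 2.46-fold (1.30 ± 0.21, adjusted p = 0.00118).

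Cd52, a small surface glycoprotein of leukocytes and activated microglia, was a low gene that stood at 8.61, 14.4 and 21.1 CPM with AON12.1 and at 2.84, 4.73 and 8.90 CPM with aCSF. It rose 2.98-fold (1.58 ± 0.27, adjusted p = 0.00137), and 7 of 8 AON12.1 libraries were above all aCSF libraries. Laptm5, a lysosomal membrane protein of blood-derived cells, stood at 70.9, 79.1 and 120 CPM with AON12.1 and at 36.7, 53.4 and 80.7 CPM with aCSF, with overlap in 5 AON12.1 libraries. It rose by 0.57 ± 0.13 (adjusted p = 0.0206) and was not called without any of aCSF replicates 2, 5 and 6 or AON12.1 replicates 2 and 5. Laptm5 was called in 9 of 16 other settings and in neither number series alone. Cd52 was not called when aCSF replicates 2 and 4 and AON12.1 replicate 2 were left out together, or with a no-feature share of at most 25%. Cd52, Lyz2 and Tyrobp were each called in series 18. In series 19 they were not called, at 1.23, 1.34 and 0.73 (adjusted p = 0.398, 0.199 and 0.247).

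In bulk tissue, a change in the number of cells of a type and a change in RNA per cell cannot be told apart. Of 16 tested genes of resting microglia 2 were called, both higher (Tyrobp and Laptm5), and 11 had a higher value, with a median of 0.21. Of 13 tested genes of activated microglia 2 were called, both higher (Lyz2 and Cd52), and 12 had a higher value, with a median of 0.18. The summed level of the tested resting genes was 896 to 1372 CPM with AON12.1 and 683 to 919 CPM with aCSF. It was 898 to 1141 CPM with the scrambled oligonucleotide and 752 to 1021 CPM in WT. For the tested activated genes the sums overlapped, at 5484 to 8139 CPM with AON12.1 and 5620 to 7844 CPM with aCSF. The sums were 6046 to 8532 CPM with the scrambled oligonucleotide and 6713 to 8957 CPM in WT. A sum mainly follows the most abundant members. The mean log2 CPM of the activated list, which weighs each gene alike, was 6.56 to 7.08 with AON12.1 and 6.26 to 6.63 with aCSF. It was 6.39 to 6.96 with the scrambled oligonucleotide and 6.32 to 6.72 in WT. Genes that define resting microglia did not all have higher values: the chemokine receptor Cx3cr1 was at 0.11 ± 0.19, the purinergic receptor P2ry12 at -0.18 ± 0.19 and Tmem119 at -0.14 ± 0.15 (adjusted p = 0.881, 0.769 and 0.795). The other defining marker, Csf1r, stood higher, at 128, 151 and 176 CPM with AON12.1 and at 105, 117 and 148 CPM with aCSF. Its groups overlapped, and it was tested but not called. Fcer1g, another receptor adaptor, was at 0.52 ± 0.13 (adjusted p = 0.0729), Fcgr3, an activating antibody receptor, at 0.70 ± 0.17 (adjusted p = 0.0622), Trem2 at 0.41 ± 0.18 (adjusted p = 0.344) and Cd68, a lysosomal marker of phagocytes, at 0.53 ± 0.20 (adjusted p = 0.276).

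The leukocyte markers S100a8, S100a9, Nkg7, Cd3e and Ccr2 were at 2.15 CPM or less in every library of both groups. The neutrophil gene S100a8 was counted in 4 AON12.1 and 2 aCSF libraries and never exceeded 1.09 CPM, and its partner S100a9 in 3 and 0 libraries, at up to 1.62 CPM. Nkg7, of cytotoxic lymphocytes, was counted in 5 AON12.1 libraries and 1 aCSF library, at up to 2.15 CPM. The T cell gene Cd3e was counted in 1 AON12.1 library and in 0 aCSF libraries, and the monocyte receptor gene Ccr2 in 1 and 2 libraries, at up to 1.17 CPM. Of 20 blood cell genes 5 were tested and 0 called by edgeR (0 at an unadjusted p under 0.05). The summed level of these 5 was 951 to 2936 CPM with AON12.1 and 938 to 1783 CPM with aCSF, and the untested genes are not in it.

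**Figure D3:**
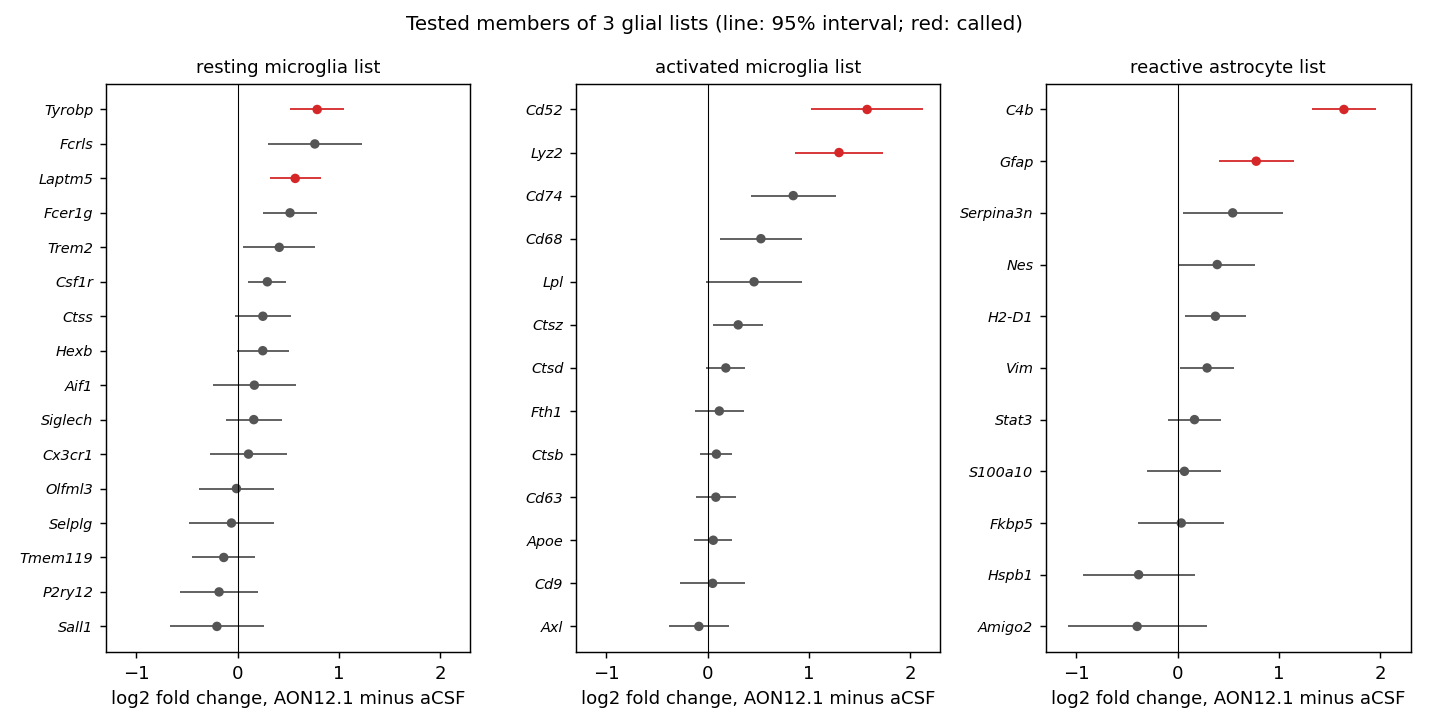
Log2 fold change of AON12.1 minus aCSF (horizontal axes) with its 95% interval for each tested member of the resting microglia, activated microglia and reactive astrocyte lists; red marks called genes. Called members are Tyrobp and Laptm5, Cd52 and Lyz2, and C4b and Gfap, while the intervals of P2ry12, Tmem119 and Cx3cr1 span 0.

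Levels in the scrambled group stand beside these changes, and AON12.1 against scrambled shares the AON12.1 libraries with the comparison against aCSF. Between AON12.1 and scrambled 0.14% of all tested genes were called, 0.0843% between scrambled and aCSF and 0.562% between AON12.1 and WT. Lyz2 averaged 30.6 CPM with the scrambled oligonucleotide, 31.4 CPM with AON12.1 and 12.8 CPM with aCSF, and scrambled minus aCSF was 1.28 (adjusted p = 0.00222). Tyrobp averaged 188 CPM with scrambled, and scrambled minus aCSF was 0.62 (adjusted p = 0.0443). For AON12.1 minus scrambled the values were 0.01 ± 0.19 for Lyz2, 0.16 ± 0.13 for Tyrobp and 0.57 ± 0.24 for Cd52 (adjusted p = 0.997, 0.850 and 0.611), which did not pass the test.

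Prmt8, a brain arginine methyltransferase anchored at the plasma membrane, was higher in both oligonucleotide groups. It stood at 131, 154 and 174 CPM with AON12.1, at 122, 197 and 225 CPM with scrambled and at 50.5, 91.6 and 101 CPM with aCSF. Every AON12.1 and every scrambled library was above every aCSF library. It rose 1.82-fold with AON12.1 (0.86 ± 0.12, adjusted p = 7.44e-05), scrambled minus aCSF was 1.16 (adjusted p = 1.20e-07), and AON12.1 minus scrambled was -0.30 ± 0.12 (adjusted p = 0.552). In series 18 its change with AON12.1 was 1.30 (adjusted p = 0.00976) and in series 19 it was 0.59 (adjusted p = 0.247), the latter the highest adjusted p of the settings tried and 8.87e-09 the lowest.

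**Figure D4:**
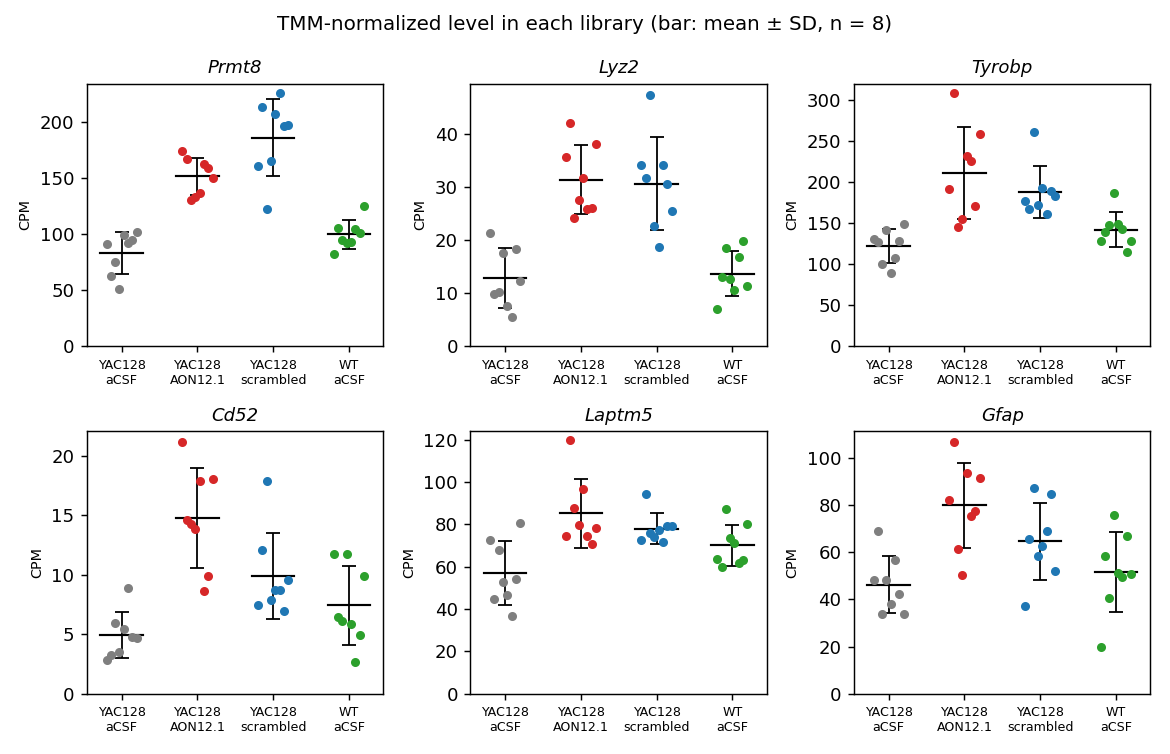
TMM-normalized CPM (vertical axes, from 0) of Prmt8 and of 5 glial genes in each library of the 4 groups; points are libraries, and the bar and whiskers are the mean ± SD (n = 8). For Prmt8 and Lyz2 the scrambled group also lies high, with scrambled minus aCSF at 1.16 and 1.28 on the log2 scale.

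Among astrocyte genes, Gfap and C4b rose, and no gene of resting astrocytes passed the test. Gfap, the intermediate filament of reactive astrocytes, stood at 50.3, 79.7 and 107 CPM with AON12.1 and at 33.8, 45.1 and 69.2 CPM with aCSF. It rose 1.71-fold (0.78 ± 0.18, adjusted p = 0.0410), with 6 of 8 AON12.1 libraries above all aCSF libraries, but was called in 4 of 16 fits that left out 1 library. The libraries whose omission kept its call were aCSF replicate 2 and AON12.1 replicates 3, 4 and 7. Of 11 tested genes of reactive astrocytes 2 were called, both higher, and 9 had a higher value (median 0.29). Vimentin (Vim) was at 0.29 ± 0.13 and the protease inhibitor Serpina3n at 0.54 ± 0.24 (adjusted p = 0.375 each).

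Of 25 tested genes of resting astrocytes 0 were called by edgeR (1 at an unadjusted p under 0.05, and Slc1a2 by DESeq2), 14 had a higher value and the median was 0.02. The glutamate transporter Slc1a2 was at 0.31 ± 0.08 (adjusted p = 0.0889) and the water channel Aqp4 at 0.24 ± 0.14 (adjusted p = 0.510). S100b, a calcium-binding protein of astrocytes and oligodendrocytes, rose from 407, 481 and 569 CPM with aCSF to 522, 627 and 808 CPM with AON12.1 (0.40 ± 0.09, adjusted p = 0.0402), and it was called in 4 of 16 fits that left out 1 library. Cst3, the secreted protease inhibitor cystatin C of glia, had the highest CPM of the called genes, at 5034, 5475 and 7457 CPM with AON12.1 and 3697, 4271 and 5082 CPM with aCSF (0.42 ± 0.09, adjusted p = 0.0206). It was not called without AON12.1 replicate 1 or 2 or aCSF replicate 3.

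Among oligodendrocyte genes, the lipid carrier Apod and the actin-severing protein Gsn rose, and the major myelin genes did not pass the test. Apod stood at 423, 474 and 806 CPM with AON12.1 and at 281, 360 and 416 CPM with aCSF, and Gsn at 78.1, 92.3 and 154 CPM against 39.9, 63.9 and 76.2 CPM. Neither gene's groups overlapped, and the changes were 0.55 ± 0.11 for Apod (adjusted p = 0.00825) and 0.64 ± 0.13 for Gsn (adjusted p = 0.00937). The highest value of both was in AON12.1 replicate 2, the library with the highest oligodendrocyte list level, and both were called without it. Neither was called in series 19, where Apod was at 0.48 and Gsn at 0.42 (0.80 and 1.02 in series 18), without aCSF replicates 2 and 4 and AON12.1 replicate 2, or with the striatal list level as a covariate. Gsn was also not called with only the AON12.1 and aCSF libraries in the fit. Gsn averaged 63.0 CPM in the scrambled group, and AON12.1 minus scrambled was 0.63 (adjusted p = 0.0170).

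Of 39 tested genes of mature oligodendrocytes 2 were called, both higher, and 22 had a higher value, with a median of 0.06. The median was -0.01 without AON12.1 replicate 2, 0.27 in series 18 and -0.01 in series 19. DESeq2 called 4 of the list higher and 1 lower, voom 2 and 1 (the lower gene was Ppp1r14a in both), and edgeR called 0 in series 19. The myelin genes Mbp and Mog were at -0.01 ± 0.11 and -0.13 ± 0.12 (adjusted p = 0.989 and 0.737). Transferrin (Trf) was at 0.48 ± 0.12 (adjusted p = 0.0656), and Ppp1r14a, a phosphatase inhibitor, was at -0.63 ± 0.15 (adjusted p = 0.0534). Of 20 tested genes of oligodendrocyte precursors 0 were called by edgeR (0 at an unadjusted p under 0.05), with a median of 0.04.

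Several genes of neurons rose by smaller amounts. Shisa9, an auxiliary subunit of AMPA receptors, stood at 62.2, 72.3 and 102 CPM with AON12.1 and at 45.6, 49.7 and 53.2 CPM with aCSF, without overlap (0.59 ± 0.11, adjusted p = 0.00448). Its relative Shisa7 was at 0.28 ± 0.12 (adjusted p = 0.338). Shisa9 was the gene called by edgeR among 42 tested genes of the glutamatergic postsynapse, of which 33 had a higher value (median 0.19). DESeq2 called 3 of the list and voom 1. Rbfox1, a neuronal splicing factor, stood at 304, 473 and 543 CPM with AON12.1 and 272, 315 and 412 CPM with aCSF (0.52 ± 0.11, adjusted p = 0.0126). Rasgef1a, an exchange factor for Ras-family proteins, stood at 359, 422 and 512 CPM against 205, 287 and 383 CPM (0.53 ± 0.12, adjusted p = 0.0206), and Mras, a Ras-related GTPase, at 174, 238 and 279 CPM against 158, 171 and 215 CPM (0.41 ± 0.08, adjusted p = 0.0101). Rasgef1a was called in 12 of 16 fits that left out 1 library, and not without aCSF replicate 2, 3 or 6 or AON12.1 replicate 3. None of Shisa9, Rbfox1, Rasgef1a and Mras was called in series 19, without aCSF replicates 2 and 4 and AON12.1 replicate 2, or with the striatal list level as a covariate. Of 42 tested striatal projection neuron genes 41 also had a higher value.

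Lrrc8d, Ttc38 and Krt9 also rose. Lrrc8d, a subunit of volume-regulated anion channels, rose by 0.71 ± 0.15 (adjusted p = 0.0206) and Ttc38 by 0.73 ± 0.17 (adjusted p = 0.0283). Krt9, a keratin gene, rose from a median of 16.2 to 29.7 CPM without overlap (0.87 ± 0.20, adjusted p = 0.0334). Lrrc8d and Ttc38 were each called in 9 of 16 fits that left out 1 library, and Krt9 in 6. A further predicted gene was called higher at 1.02 and is counted without a name.

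Nalcn had the smallest p among the 10 lower genes. It encodes the sodium leak channel that sets the resting potential of neurons, and it stood at 17.6, 24.3 and 34.5 CPM with AON12.1 and at 35.7, 41.7 and 53.5 CPM with aCSF. All 8 AON12.1 libraries were below all aCSF libraries, and the log2 fold change was -0.83 ± 0.14 (adjusted p = 0.00128). Nalcn was called in 16 of 16 fits that left out 1 library. It was not called in series 18 (-0.85, adjusted p = 0.0633) or in series 19 (-0.78, adjusted p = 0.287). Nor was it called when only libraries with a no-feature share of at most 25% were kept. The scrambled group had a median of 42.2 CPM, and AON12.1 minus scrambled was -0.71 ± 0.14 (adjusted p = 0.0157). Other subunits of the channel complex did not pass the test: Unc80 was at -0.20 ± 0.13, Unc79 at -0.03 ± 0.15 and Fam155a at -0.22 (adjusted p = 0.572, 0.963 and 0.515). Among 28 tested sodium and calcium channel genes Nalcn was the called one, and 17 had a higher value (median 0.07).

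Bend6, a transcriptional corepressor of Notch signalling in neurons, stood at 27.5, 41.9 and 62.9 CPM with AON12.1 and at 51.1, 68.5 and 86.3 CPM with aCSF (-0.71 ± 0.13, adjusted p = 0.00307). In 6 of 8 AON12.1 libraries it was below all aCSF libraries. The noncoding transcript 2900060N12Rik stood at 4.86, 9.57 and 16.7 CPM with AON12.1 and at 12.2, 21.2 and 26.9 CPM with aCSF, with 7 libraries below all aCSF libraries. Its log2 fold change was -1.07 ± 0.21 (adjusted p = 0.00771), and AON12.1 minus scrambled was -1.09 (adjusted p = 0.00892). Alkbh6, of the AlkB dioxygenase family, stood at 40.0, 51.1 and 62.1 CPM against 59.5, 73.0 and 76.7 CPM with aCSF (-0.46 ± 0.10, adjusted p = 0.0266), and AON12.1 minus scrambled was -0.50 (adjusted p = 0.0203). Alkbh6 was called in 10 of 16 fits that left out 1 library.

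For the other lower genes the groups were apart or nearly so. Hypk, a chaperone-like protein that was found as a partner of huntingtin, stood at 14.0, 17.8 and 21.6 CPM with AON12.1 and at 22.2, 29.2 and 33.8 CPM with aCSF (-0.71 ± 0.14, adjusted p = 0.00785), with no overlap. Of 20 tested genes of huntingtin partners 0 were called by edgeR (3 at an unadjusted p under 0.05), in a list that does not hold Hypk. Mettl26 fell by 0.62 (adjusted p = 0.00801) and Adssl1, an adenylosuccinate synthase, by 0.68 (adjusted p = 0.0266), both without overlap. Dzip3, a ubiquitin ligase, fell by 0.76 (adjusted p = 0.0117). It was at -1.65 in series 18 and at -0.56 in series 19 (adjusted p = 0.477), and it was not called without aCSF replicates 2 and 4 and AON12.1 replicate 2 or with the striatal list level as a covariate. Hypk, Mettl26, Adssl1, Bend6, 2900060N12Rik and Alkbh6 likewise lost their calls in these settings, and also in series 18 alone and series 19 alone.

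The X-linked genes Dmrtc1a and Ints6l fell by 1.11 and 1.05 on the log2 scale (adjusted p = 0.0144 and 0.0169), from medians of 19.6 and 21.5 CPM to 9.66 and 11.7 CPM without overlap. Dmrtc1a was not called without aCSF replicate 3, nor Ints6l without aCSF replicate 3 or AON12.1 replicate 8. Adssl1 was called in 11 of 16 fits that left out 1 library. Ints6l averaged 13.6 CPM in the scrambled group and 14.4 CPM in WT, against 22.9 CPM with aCSF.

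Of the called genes, 4 overlap another tested gene in the GRCm38 annotation, and whether counting used strand is not given. Hypk overlaps Serf2 (0.13, adjusted p = 0.875) on the same strand. 2900060N12Rik and S100b lie opposite Mboat2 (-0.03, adjusted p = 0.975) and Dip2a (-0.04, adjusted p = 0.956), and reads of such pairs are uncertain.

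Striatal projection neuron genes had higher values with AON12.1 as a list, and 0 of 42 tested members were called by edgeR or voom and 5 by DESeq2. Of the 42, 41 had a higher value and 29 had an unadjusted p under 0.05, with a median of 0.42; over all tested genes 50.04% had a higher value and the median was 0.00. The summed level was 11311 to 19622 CPM with AON12.1 and 7026 to 12707 CPM with aCSF. Hpca, the calcium sensor hippocalcin, stood at 1093, 1453 and 2497 CPM against 643, 1053 and 1214 CPM (0.63 ± 0.16, adjusted p = 0.0647). Ppp1r1b was at 0.56 ± 0.19 (adjusted p = 0.210), Foxp1, a transcription factor of these neurons, at 0.58 ± 0.17 (adjusted p = 0.129), and Rasd2, the striatal GTPase Rhes, at 0.57 ± 0.20 (adjusted p = 0.221).

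Of the genes listed for either projection pathway 0 were called by edgeR, with 3 of each list at an unadjusted p under 0.05; DESeq2 called 1, Tac1, and voom 0. Of 10 tested genes of the indirect pathway 7 had a higher value (median 0.34). That median was 0.19 without AON12.1 replicate 2, and 0.11 without it and aCSF replicates 2 and 4. Penk, the enkephalin precursor, stood at 2777, 3412 and 4688 CPM with AON12.1 and at 1510, 2574 and 3130 CPM with aCSF, and averaged 4201 CPM in WT (0.53 ± 0.16, adjusted p = 0.141). Adora2a, the adenosine receptor, was at 0.60 ± 0.18 (adjusted p = 0.129), with means of 75.8 CPM with AON12.1, 49.2 CPM with aCSF and 87.7 CPM in WT. Of 11 tested genes of the direct pathway 10 had a higher value (median 0.12), with the substance P precursor Tac1 at 0.56 ± 0.14 (adjusted p = 0.0742), the dynorphin precursor Pdyn at 0.43 ± 0.15 (adjusted p = 0.210) and Drd1 at 0.28 ± 0.17 (adjusted p = 0.539).

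Markers of thalamus, hypothalamus, choroid plexus, pallidum and septum mostly had lower values with AON12.1, and those of cortex mostly higher values. Of 15 tested thalamic and hypothalamic genes 14 had a lower value (median -0.52), and their summed level was 427 to 1253 CPM with AON12.1 and 584 to 3269 CPM with aCSF. All 6 tested choroid plexus and ependymal genes had a lower value (median -0.36), and their summed level was 222 to 441 CPM with AON12.1 and 218 to 3958 CPM with aCSF. Without aCSF replicate 4 the choroid median was -0.13, and in series 19 it was -0.09, with 2 of 6 values higher. Of 9 tested genes of pallidum and septum 7 had a lower value (median -0.26). Of 22 tested genes of cortical excitatory neurons 16 had a higher value (median 0.13) and 0 were called by edgeR, DESeq2 or voom (3 at an unadjusted p under 0.05). The cortical median was 0.00 without AON12.1 replicate 1, 0.53 in series 18 with 5 genes called higher, and -0.06 in series 19. Neither the thalamic nor the choroid list had a member called by edgeR (4 and 2 at an unadjusted p under 0.05), DESeq2 called 1 thalamic gene lower, Calb2, and voom 0. With cortex and choroid plexus scores of each library as covariates the striatal median was 0.43, with 40 of 42 values higher and 30 at an unadjusted p under 0.05. This fit held no thalamic score, and the thalamic median in it was -0.36, so it does not account for thalamic tissue. The choroid median was 0.01 in this fit, where the list's own score removes its level by construction. Without aCSF replicates 2 and 4 and AON12.1 replicate 2 the striatal median was 0.29, with 38 of 42 values higher and 12 at an unadjusted p under 0.05, and the thalamic median was -0.17. With the striatal list level of each library as a covariate, which removes the list's own level by construction, the striatal median was 0.01 and 13 genes were called.

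**Figure D5:**
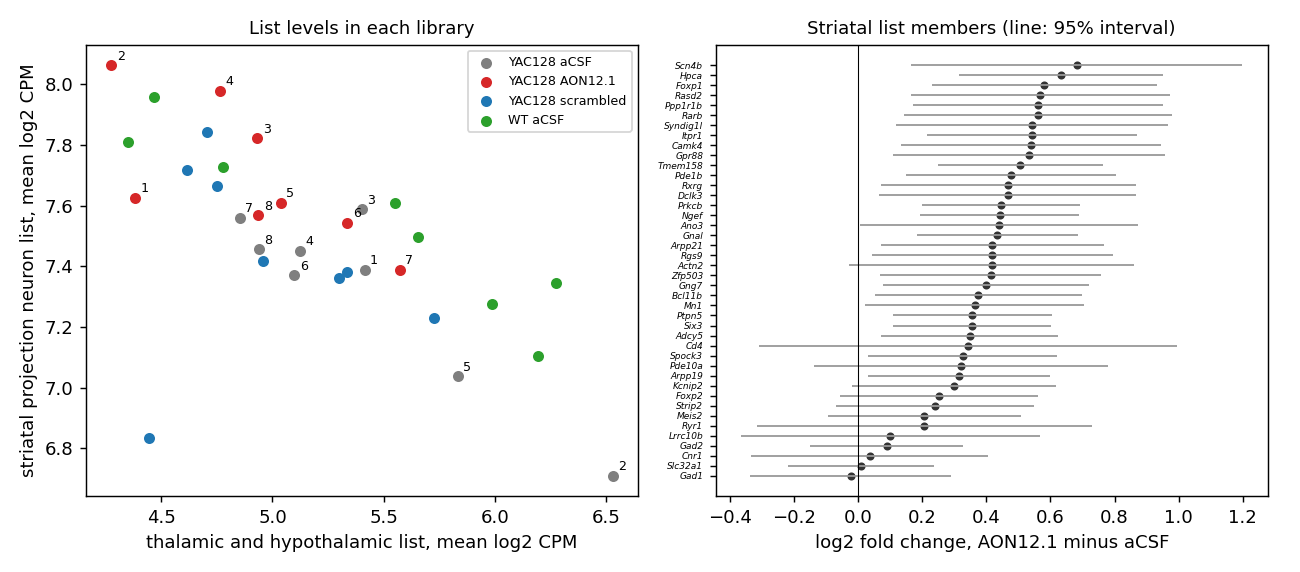
Left, mean log2 CPM of the striatal list against that of the thalamic and hypothalamic list in each of the 32 libraries, with replicate numbers for the AON12.1 and aCSF groups; right, log2 fold change with 95% interval for the 42 tested striatal genes. The aCSF library replicate 2 lies lowest in the striatal list at 6.71 and highest in the thalamic list at 6.53, and 41 of the 42 genes have a value above 0.

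Genes that sense nucleic acids or answer interferon were mostly under the filter. Of 21 sensing genes in the files, which include endosomal receptors for nucleic acids and their adaptors, 4 were tested and 0 called by edgeR (2 at an unadjusted p under 0.05), with Unc93b1, the chaperone of endosomal receptors, at 0.53 (adjusted p = 0.280). Of 8 tested interferon response genes 0 were called by edgeR (0 at an unadjusted p under 0.05) and 5 had a higher value (median 0.11), with Ifitm3 at 0.13 (adjusted p = 0.777). All 5 tested genes of MHC class I had a higher value (median 0.36) and 0 were called by edgeR (3 at an unadjusted p under 0.05), with H2-D1, H2-K1 and the light chain B2m at 0.37 ± 0.15, 0.37 ± 0.16 and 0.36 ± 0.15 (adjusted p = 0.310, 0.344 and 0.334). The MHC class I median was 0.15 without aCSF replicate 6 and 0.14, with 4 of 6 values higher, without aCSF replicates 2 and 4 and AON12.1 replicate 2. Cd74, the invariant chain of MHC class II, was at 0.85 ± 0.21 (adjusted p = 0.0622). Il33, an alarmin of oligodendrocytes and astrocytes, was at 0.58 ± 0.16 (adjusted p = 0.0964), with means of 54.8 CPM with AON12.1, 36.1 CPM with aCSF and 61.1 CPM in WT. DESeq2 and voom likewise called 0 genes of the sensing, interferon, MHC class I, nonsense-mediated decay, precursor, blood cell and huntingtin partner lists. DESeq2 gave an adjusted p to 5296 genes, against 10679 with edgeR, and 13 of the 33 called genes had none. Genes without an adjusted p could not be called by DESeq2, and their number in each list was not counted. A 0 from DESeq2, here or for another list, can therefore stand for genes that it could not call.

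The calls did not all rest equally on every library. Of the 33 called genes 20 were called in each of the 16 fits that left out 1 library, and all 33 had the same sign in series 18 and in series 19, which is no independent test since these libraries entered the fit. 1110038B12Rik and C4b were called in every other setting tried. Without aCSF replicates 2 and 4 and AON12.1 replicate 2, 7 genes were called: 1110038B12Rik, C4b, Prmt8, Lyz2, Tyrobp, Hist1h1c and Nalcn. Within series 19 (6 against 4 libraries) 2 genes were called, and within series 18 (2 against 4) 276 were, where the no-feature share differed by -10.9 points and the thalamic median was -1.68.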

How the data were processed

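Striatal RNA was profiled by a 3′ method, modified mcSCRB-seq from 100 ng total RNA with molecular identifiers, per the labels' protocols. The submitters' processing notes name HTSeq 0.12.4, STAR 2.7.5a, cutadapt 2.10 and FastQC, and the GRCm39 build. The authors deposited whole-number counts per gene; collapsing by molecular identifier and use of strand are not given in the sources used here. The 55415 features were analysed without the 5 summary lines; symbols from a GRCm38 annotation matched 52081, with 99.8% of counts.

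In R 4.3.3, edgeR 4.0.16 kept genes by filterByExpr (minimum count 10, minimum total 15). All 32 libraries were fitted together (TMM, quasi-likelihood, 1 term per group) with the contrast AON12.1 minus aCSF, checked on simulated counts. Intervals are 95%. Replicate pairs differed by more than counting noise; labels give each library its own animal number. DESeq2 1.42.0, voom (limma 3.58.1), other scalings, filters, covariates, subsets and leaving out each library were alternatives, 3 of them chosen after seeing the data. Named are all called genes (up to 25 per direction), the next 10, up to 4 members of each of 50 lists by smallest p, references and cell type markers; predicted genes are counted, and a few genes are counted but not reported by name here. The members and lists were chosen with earlier results of these data known.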

Additional observations from a re-analysis of the deposited data

Results flagged for a closer look

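In 12 of 100 sets of 8 libraries (named genes and cell type list levels in both groups), 1 library stood further from the nearest other than Dixon's 95% criterion allows; chance marks about 1 in 20 such sets. AON12.1 replicate 2 was high for Shisa9 (102 CPM, next 75.8), Apod (806 CPM, next 546), Gsn (154 CPM, next 114) and the oligodendrocyte list (mean log2 CPM 7.40, next 6.90). AON12.1 replicate 7 was low for Mras (174 CPM, next 233) and Rbfox1 (304 CPM, next 432), and AON12.1 replicate 4 was low for the reactive astrocyte list (4.83, next 5.27). In the aCSF group, replicate 2 was high for Mettl26 (88.7 CPM, next 73.9), replicate 3 for Dmrtc1a (28.9 CPM) and replicate 5 for Adssl1 (53.2 CPM, next 39.4). The aCSF replicate 4 was high for the choroid plexus list (7.09, next 5.58) and the mural cell list (4.97, next 4.70).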

How the results depend on the processing

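The count of 33 called genes (23 higher, 10 lower) became 90 with DESeq2 (66 and 24; 20 of the 33 were among them and 13 had no adjusted p) and 57 with no filter on low counts (35 and 22). Library size as the only scaling gave 37, of which 18 were lower. Series 18 alone gave 276 (158 and 118) and series 19 alone 2 (2 and 0; 820 at an unadjusted p under 0.05). Keeping libraries whose no-feature share was at most 25%, 5 against 3, gave 6 (6 and 0). Leaving out aCSF replicates 2 and 4 and AON12.1 replicate 2 gave 7 (6 and 1), and the striatal level as a covariate 13 (11 and 2), both chosen after seeing the data. Leaving out 1 library at a time gave 26 to 73 calls, 16 to 51 higher and 7 to 22 lower; without aCSF replicate 8 there were 73 and without AON12.1 replicate 7 there were 61. Fewer libraries enter the subsets; the cause of the other shifts was not tested. The difference in no-feature share was 3.48 points within series 19, the reverse of -1.80 over all. The remaining settings kept the count within 1.5 times of 33. No paired analysis was possible because the titles give each animal its own number and replicates were numbered in accession order.

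Depth limits low genes: at a median SE of 0.16, small changes pass the test in few genes, and 3′ counts do not show which exons a transcript holds.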

Other observations

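Activity-related and potassium channel genes had more higher than lower values, and edgeR called 0 of them over all libraries. Of 22 tested immediate early genes 14 had a higher value (median 0.12) and 0 were called by edgeR, with 6 at an unadjusted p under 0.05. The median was 0.69 in series 18 (19 of 22 higher), -0.06 in series 19 (10 of 22 higher) and 0.03 without AON12.1 replicate 1. Homer1, a postsynaptic scaffold with an activity-induced form, was at 0.41 (adjusted p = 0.210), Arc at 0.39 (adjusted p = 0.371) and Fos at -0.27 ± 0.27 (adjusted p = 0.756). Of 36 tested potassium channel genes 24 had a higher value (median 0.15) and 0 were called by edgeR (11 at an unadjusted p under 0.05), with the M-current subunit Kcnq3 at 0.43 and the glial inward rectifier Kcnj10 at -0.39.

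Ribosomal protein genes and chaperones lay on different sides. Of 76 tested ribosomal protein genes 61 had a higher value, with a median of 0.11 that was 0.29 in series 18 and 0.01 in series 19; 0 were called by edgeR, with 20 at an unadjusted p under 0.05. Of 26 tested heat shock genes 20 had a lower value (median -0.11), 0 were called by edgeR and 4 had an unadjusted p under 0.05, among them the co-chaperone Dnajb1 at -0.63. Of 27 tested genes of cholesterol synthesis 18 had a lower value (median -0.09), 0 were called by edgeR and 3 had an unadjusted p under 0.05, with the kinase Pmvk at -0.43 and the epoxidase Sqle at -0.54. In these 5 lists voom called 0 genes. DESeq2 called 0 immediate early genes, 2 potassium channel genes (Kcnq3 higher, Kcnj10 lower), 3 ribosomal protein genes (Rps26 and Rps3 higher, Rpl4 lower), Dnajb1 and Pmvk, the last pair lower.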
